A study of Oryctolagus cuniculus with 12 samples.

Results

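Ribosomal protein genes encode the proteins that, together with ribosomal RNA, build the 40S and 60S subunits of the cytoplasmic ribosome. They were taken from the gene table by their names (RPL followed by a digit or P, or RPS followed by a digit or A), which 72 rows carried. Names containing RPS6K, which belong to kinases, were left out, and 1 further small-subunit gene was not analysed here. Of the 72 rows, 68 reached at least 10 counts in 3 libraries and were analysed, out of 20566 genes in the table, and all 68 also passed the filter on low counts that preceded the tests. They comprised 37 proteins of the large subunit, 23 of the small subunit, 2 proteins of the stalk that recruits translation factors (RPLP0 and RPLP1), 5 paralogs of subunit proteins (RPL7L1, RPL22L1, RPL26L1, RPL36AL and RPS27L) and RPS19BP1, which encodes a protein that binds S19 and is no ribosomal subunit. The rule itself used names and a count minimum and no difference between groups. The family was chosen with earlier results of these data known.

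Each ribosome holds a single copy of nearly every subunit protein, and their genes are transcribed at matched, high rates in growing and resting cells alike. Their mRNAs begin with a terminal oligopyrimidine (TOP) tract, through which mTOR signalling and LARP1 set how many of them are translated, so that protein output can change while mRNA levels do not. Assembly takes place in the nucleolus, where RNA polymerase I makes ribosomal RNA and a large set of assembly factors processes it. In conjunctiva, a mucous membrane of epithelium, goblet cells and loose connective tissue, surgery is followed by an influx of leukocytes and growth of fibroblasts.

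The study measured RNA in conjunctiva of female Japanese White rabbits. Trabeculectomy, a filtering operation for glaucoma that drains aqueous humor under the conjunctiva, was performed with mitomycin C, a DNA-crosslinking agent that limits scarring, in the right eye, and conjunctiva including the bleb was taken 3 hours (TL-3h), 3 days (TL-3d) or 14 days (TL-14d) later. Conjunctiva of left eyes served as the control (cont). Each of the 4 groups held 3 libraries. By the study's description of its operation, betamethasone and antibiotic ointment were given at its end, so the operated groups carry surgery, mitomycin C and these drugs together. The controls came from animals that had been operated on in the other eye; when the control tissue was taken, and from which of the operated animals, is not given in the sources used here. The study's methods give an age in weeks for its rabbits without stating that it covers the animals of these libraries. The study describes its levels at each time as averages over separate eyes and operated on the right eye of an animal, so that the operated libraries of a time stand for separate animals. Nothing states this for the cont libraries, and p-values measure the spread between these libraries.

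Total counts per library ranged from 27111348 to 38591425, and the precision of most of these genes was set by the spread between libraries rather than by depth. Levels are given as CPM, counts scaled to a common library size after trimmed-mean (TMM) adjustment in edgeR, and changes as log2 fold changes with standard errors (SE). The q value is the p of edgeR's quasi-likelihood test after Benjamini-Hochberg adjustment across 14835 genes, and a gene passed at a q of 0.05 or less. The tissue label was checked against marker lists. Of 10 markers of conjunctival epithelium 7 were in the table, and their summed level was 5430 to 11200 CPM in cont. Marker levels of other cell types differed between the groups: the summed level of 6 neutrophil markers was 3.49 to 82.4 CPM in cont, 1050 to 2790 in TL-3h, 126 to 739 in TL-3d and 3.33 to 114 in TL-14d. In bulk tissue, fewer cells of a type and less RNA per cell cannot be told apart.

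Ribosomal protein genes were among the most abundant mRNAs of the tissue. Their counts made up 3.80%, 3.38% and 2.98% of all counts in the 3 cont libraries and 2.88%, 2.77% and 2.62% in the 3 TL-3h libraries. All 3 TL-3h libraries therefore lay below all 3 cont libraries. The shares were 3.11%, 3.33% and 3.22% in TL-3d, within the range of the controls, and 4.19%, 2.41% and 2.96% in TL-14d, whose replicates 1 and 2 were the highest and the lowest of the 12 libraries. Expressed per transcript length, as a share of summed FPKM (fragments scaled to transcript length and library size, as deposited), the genes held 10.9 ± 1.04% in cont, 8.64 ± 0.296% in TL-3h, 9.91 ± 0.479% in TL-3d and 10 ± 2.39% in TL-14d (mean ± SD, n = 3). These shares need no scaling between libraries, and no test was applied to them.

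**Figure D1:**
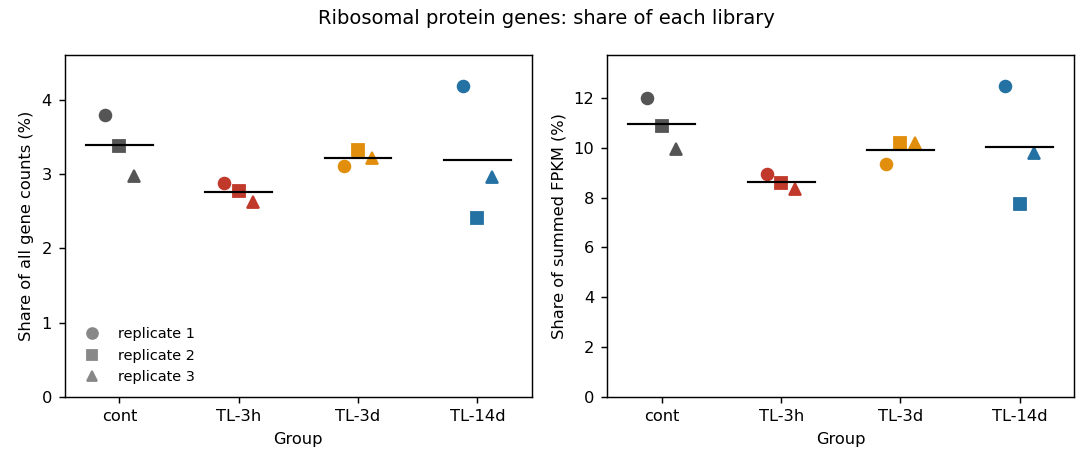
Share of each library held by the 68 ribosomal protein genes, in percent of all gene counts (left) and of summed FPKM (right), by group; symbols are the 3 replicates and the line is their mean. The 3 TL-3h libraries (2.62% to 2.88% of counts) lie below the 3 cont libraries (2.98% to 3.80%), and TL-14d spans 2.41% to 4.19%.

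The genes differed widely in level among themselves. By mean FPKM over all 12 libraries, RPL23A, a protein of the exit tunnel region of the large subunit, led with 2320, followed by RPLP1 with 1680. At least 100 FPKM was reached by 62 of the 68, and at least 1000 FPKM by 11 of them, against 39 of all other genes tested. In cont, RPL23A stood at 2830 ± 287 FPKM, RPLP1 at 1730, RPL10 at 1650, RPL7 at 1100 ± 180 and RPLP0 at 856 ± 48.3. At the low end stood the paralogs RPL36AL (66.9 ± 1.88 FPKM in cont), RPL26L1 (32.5 ± 2.03) and RPL7L1 (27.4 ± 0.77), then RPS19BP1 (27.6 ± 2.69), and, among subunit proteins, RPS26 (29.1) and RPL38 (0.949 ± 0.122). RPL38 and RPS26 are subunit proteins that every ribosome carries, and their low levels in the table go with copies that bear other names, described below.

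Most of these genes moved little at any time compared with other genes. At 3 hours, 56 of 68 (82.4%) lay within 0.5 log2 of cont, against 34.9% of all genes tested. The SD of the log2 fold changes over the 68 genes was 0.27, and 1.47 over all genes. At 3 days 63 of 68 (92.6%) lay within 0.5 log2, against 51.5% of all genes, and at 14 days all 68 did, against 72.4%. Tested over the 3 times together, 11 of the 68 genes (16.2%) differed from cont, against 52.4% of all genes tested. TL-14d replicate 1, which is described below, weighed on this count: without it, 39 of the 68 differed (57.4%), beside 56.5% of all genes in the same fit, so the lower share of these genes rested on that library. Without TL-3h replicate 1 the count was 6, and without TL-3h replicate 2 or 3 it was 7. The share of all genes is not set beside these last counts, which therefore do not show a loss particular to this family.

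**Figure D2:**
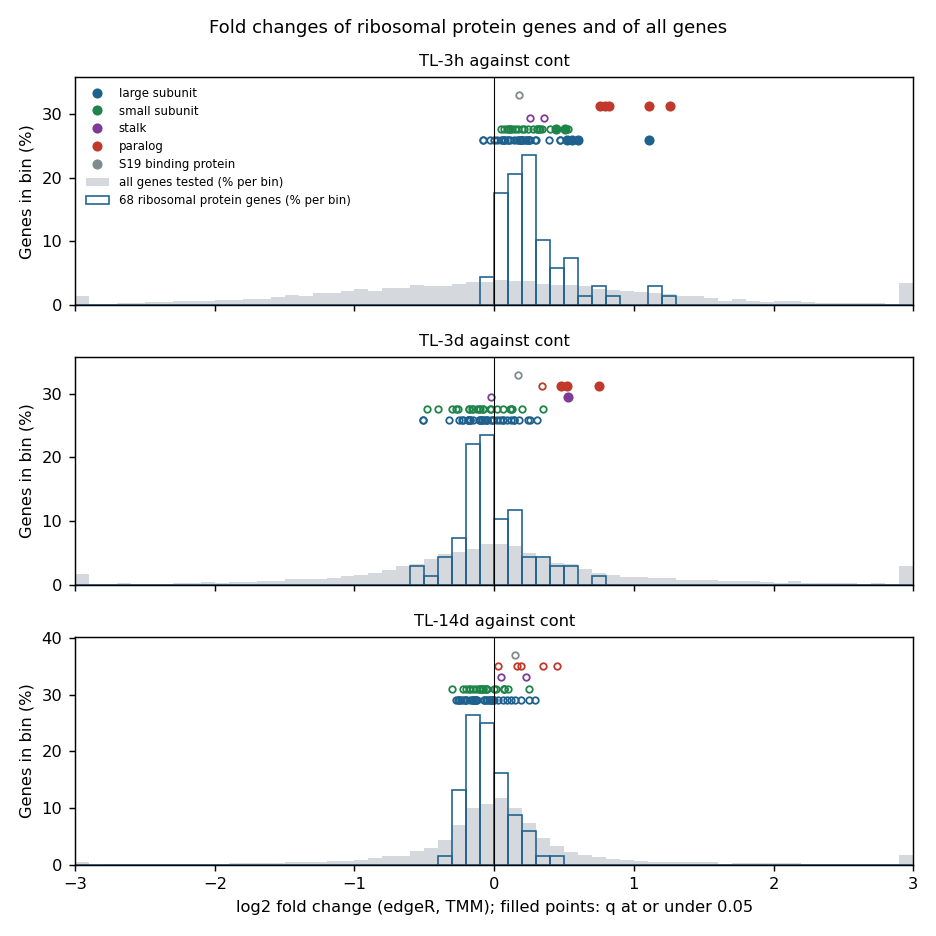
Log2 fold changes (x axis) in TL-3h, TL-3d and TL-14d against cont; bars give the percent of genes per bin of 0.1 for all 14835 genes tested (grey; values beyond 3 are in the end bins) and the 68 ribosomal protein genes (outlined), and points above show each ribosomal protein gene by class, filled where q was at or under 0.05. The ribosomal protein genes form a narrow peak, at a median of 0.21 at 3 hours (-0.29 with library size only) and -0.06 at 3 and 14 days, with the paralogs at its upper end.

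At 3 hours, 11 of the 68 genes passed the threshold, and each was higher in TL-3h under TMM scaling. This share, 16.2%, was smaller than among all genes, of which 23.2% were higher and 22.2% lower. The genes that passed included all 5 paralogs and 6 of the 62 proteins of the subunits and stalk. The median log2 fold change of the 68 genes was 0.21, with 65 of them above 0, and that of all genes tested was 0.02. The level in all 3 TL-3h libraries exceeded that in all 3 cont libraries for 34 of the 68 genes (28.9% of all genes), and fell below it for 0 (28.3% of all genes). The direction of the family depended on the scaling: the median was 0.16 with DESeq2 size factors (62 of 68 above 0), but -0.02 with upper quartile factors (32 above 0) and -0.29 with library size only (12 above 0), where the median of all genes was -0.03, -0.20 and -0.47. Under each of these scalings the median of the ribosomal protein genes stood above that of all genes, while their share of counts was lower than in cont. The TMM factors were 0.77 to 0.78 in TL-3h and 1.03 to 1.13 in the other 9 libraries. Neutrophil markers moved in the same libraries (6 of 6 tested were higher). The summed level of 6 fibroblast markers was 12200 to 76300 CPM in cont and 105000 to 126000 in TL-3h, without overlap, although 0 of the 6 passed singly, and that of 5 endothelial markers was 63.7 to 275 CPM in cont and 606 to 1210 in TL-3h, where 2 passed. Monocyte and macrophage markers (69.1 to 604 CPM in cont, 647 to 987 in TL-3h), T cell markers (12 to 20.1, 32.2 to 51.5) and Schwann cell markers (16.4 to 24.9, 32.5 to 49.4) were also higher without overlap. None of these markers was at 0 in cont or TL-3h, and their part in the result was not tested.

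The paralogs had log2 fold changes of 0.76 to 1.26 at 3 hours, with a median of 0.82, beside 0.20 for the 62 proteins of the subunits and stalk. RPL7L1 is related to RPL7 and takes part in assembly of the large subunit in the nucleolus. Its gene (Entrez 100341872) lies on chromosome 12 of OryCun2.0, 32409324 to 32418151, plus strand. Its level was 79.0, 82.8 and 87.5 CPM in cont, 192, 190 and 215 in TL-3h, 125, 122 and 112 in TL-3d, and 79.3, 91.3 and 84.4 in TL-14d. All TL-3h and all TL-3d libraries exceeded all cont libraries, and the TL-14d libraries overlapped with them. Relative to cont, RPL7L1 rose by 1.26 on the log2 scale at 3 hours (SE 0.11, q = 3.89e-05), a 2.40-fold difference, and by 0.52 at 3 days (SE 0.11, q = 0.0155), while at 14 days the log2 fold change was 0.03 (SE 0.11, q = 0.931). The call at 3 hours held with library size only, where the log2 fold change was 0.76. That at 3 days was lost without cont replicate 1 or 2 or TL-3d replicate 1 or 2 (q = 0.0599 to 0.0636).

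RPL36AL, whose product is nearly identical to that of RPL36A, had 31.6, 31.7 and 35.4 CPM in cont and 74.4, 62.4 and 75.5 CPM in TL-3h. In TL-3d it had 40.6, 52.5 and 45 CPM, and in TL-14d 41.7, 32.7 and 36.2. The TL-3h and TL-3d libraries all lay above cont. RPL36AL rose by 1.11 at 3 hours (SE 0.14, q = 0.000225) and by 0.48 at 3 days (SE 0.14, q = 0.0406). The first call held with library size only (log2 fold change 0.61). The second was lost in 13 of 23 alternatives, among them library size only (0.46, q = 0.0507), upper quartile factors (0.42, q = 0.0517), and every fit without 1 library except those without TL-3h replicate 2 or TL-14d replicate 1 or 2. Of the loci annotated as L36a itself, the one with the most counts had a log2 fold change of 0.44 at 3 hours (q = 0.0191), and the next, with a median of 945 counts, one of 1.16 (q = 0.00071).

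RPS27L, a paralog of RPS27 and a known transcriptional target of p53, passed at both 3 hours and 3 days. It had 75.7, 61.4 and 62.9 CPM in cont, 131, 108 and 115 in TL-3h, 111, 111 and 114 in TL-3d, and 78.6, 106 and 87.9 in TL-14d. Here every library of the 3 operated groups lay above every control. RPS27L rose by 0.82 at 3 hours (SE 0.14, q = 0.00104), by 0.75 at 3 days (SE 0.14, q = 0.0132), and had a log2 fold change of 0.45 at 14 days (SE 0.14, q = 0.366), which did not pass. With library size only the value at 3 hours was 0.32 and did not pass (q = 0.0977), and the call at 3 days was lost without cont replicate 2 (q = 0.0557) or TL-3d replicate 2 (q = 0.0505).

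RPL26L1, which differs from RPL26 by few residues, rose from 22.1 ± 0.739 CPM in cont to 38.2 ± 3.39 CPM in TL-3h (mean ± SD, n = 3), a log2 fold change of 0.79 (SE 0.12, q = 0.0005). RPL22L1, the paralog of RPL22, rose from 58.4 ± 7.61 to 99.2 ± 16.8 CPM (0.76, SE 0.19, q = 0.00895). For both, every TL-3h library exceeded every cont library, and with library size only neither passed (0.29 with q = 0.0872, and 0.26 with q = 0.309). At 3 days RPL26L1 had a log2 fold change of 0.34 (q = 0.0684) and RPL22L1 of 0.48 (q = 0.101), and neither passed.

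The ratio of a paralog to its partner within a library does not depend on any scaling between libraries. RPL7L1 reached 2.03%, 2.78% and 2.79% of the FPKM of RPL7 in cont, 5.15%, 5.20% and 6.25% in TL-3h, and 3.83%, 3.69% and 3.34% in TL-3d. RPS27L stood at 17.7%, 16.1% and 18.2% of RPS27 in cont, 30.2%, 25.8% and 29.3% in TL-3h, and 42.1%, 39.7% and 39.6% in TL-3d, so this ratio was higher at 3 days than at 3 hours in every library. RPL22L1 stood at 31.7 ± 3.82% of RPL22 in cont, 51.5 ± 10% in TL-3h and 46.2 ± 7.51% in TL-3d, and RPL26L1 at 3.32 ± 0.352%, 5.35 ± 0.782% and 4.70 ± 0.667% of RPL26. For all 4 pairs the TL-3h and the TL-3d libraries lay above the cont libraries without overlap, which gives p = 0.1 in a two-sided exact permutation test of each, the smallest p that 3 libraries against 3 can give. At 14 days the libraries overlapped with cont in each of the 4 pairs (exact permutation p = 0.2 to 0.5). The partners themselves passed the threshold at no time in the main fit: at 3 hours the log2 fold change was 0.11 for RPL7, 0.07 for RPL22, 0.10 for RPL26 and 0.11 for RPS27, all of which turned below 0 with library size only, where RPL22 passed (-0.44, q = 0.0398). At 3 days RPS27 had -0.48, and passed as lower with only the 2 groups compared (q = 0.0383). The ratio of RPS27L to RPS27 exceeded cont by 0.71 log2 in TL-3h and 1.22 in TL-3d. RPS27L itself had a log2 difference of -0.08 between these times.

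**Figure D3:**
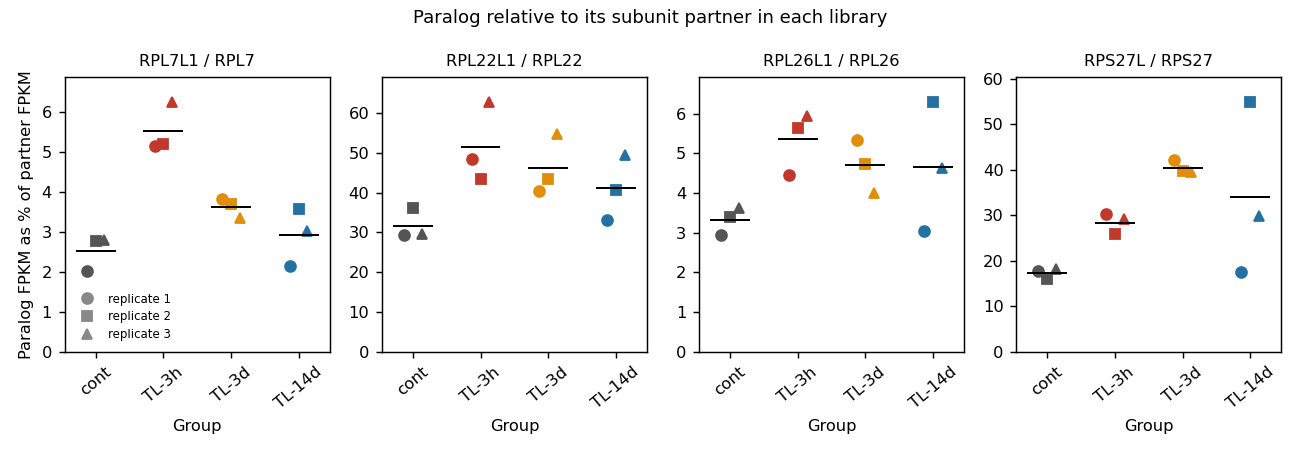
FPKM of 4 paralogs as a percent of the FPKM of their subunit partner (y axis, from 0) in each library, by group; symbols are the 3 replicates and the line is their mean. In all 4 pairs the TL-3h and TL-3d libraries lie above the cont libraries, and the TL-14d libraries overlap with cont, with RPS27L at 17.5%, 54.9% and 29.9% of RPS27.

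The proteins of the subunits that passed the threshold at 3 hours included RPL38, RPL15, RPL21, RPL27 and RPS6, of which RPL15, RPL21 and RPS6 are named because they passed. RPL15 had 315, 316 and 315 CPM in cont and 497, 487 and 453 CPM in TL-3h, without overlap on this scale, and its log2 fold change was 0.60 (SE 0.10, q = 0.00112). RPS6, the small-subunit protein that S6 kinase phosphorylates, had 775, 704 and 725 CPM in cont and 1062, 1074 and 998 CPM in TL-3h. Its log2 fold change was 0.51 (SE 0.13, q = 0.00883). RPL27, often used as a reference gene in PCR, rose by 0.52 (SE 0.12, q = 0.0061), but had a log2 fold change of 0.02 with library size only. RPL21 rose by 0.56 under TMM scaling. With library size only RPL15 (0.10, q = 0.483), RPS6 (0.01, q = 0.975) and RPL21 (0.05, q = 0.817) did not pass either.

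RPL38 had a log2 fold change of 1.11 at 3 hours (SE 0.34, q = 0.0234), at a very low level, and did not pass with upper quartile factors (0.89, q = 0.06) or library size only (0.61, q = 0.183), nor without any 1 cont replicate (q = 0.0591 to 0.0795), TL-3h replicate 1 (q = 0.117) or TL-3h replicate 2 (q = 0.0589). Its row held 25 to 77.5 counts per library, 1.12, 1.08 and 0.928 CPM in cont and 3.00, 2.16 and 1.61 CPM in TL-3h. A separate locus annotated as L38 carried a median of 1428 counts, and its log2 fold change was 0.14 (q = 0.748). With the counts of both loci summed, RPL38 had a log2 fold change of 0.17 (q = 0.683). RPS26 was the converse case: its own row had 2.33 to 4.61 CPM and did not pass (0.53, SE 0.24, q = 0.103), a locus annotated as S26 with a median of 6719 counts rose by 0.43 (q = 0.0209), and the sum of its loci rose by 0.44 (q = 0.0211).

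The stalk protein RPLP0, a common reference gene in PCR, passed at 3 days. It had 973, 870 and 949 CPM in cont, 1201, 1208 and 1170 in TL-3h, 1302, 1455 and 1268 in TL-3d, and 1270, 928 and 1079 in TL-14d. The TL-3h and TL-3d libraries lay above all cont libraries, and those of TL-14d overlapped with cont. The log2 fold change was 0.36 at 3 hours (SE 0.15, q = 0.0761), which did not pass in edgeR, passed in DESeq2 (0.31, q = 0.0343) and without TL-14d replicate 1 (q = 0.0409), and turned to -0.14 with library size only. At 3 days it was 0.53 (SE 0.15, q = 0.0395), a call lost in 13 of 23 alternatives at log2 fold changes of 0.47 to 0.57, among them library size only (q = 0.0549), upper quartile factors (q = 0.0576), no filter on low counts (q = 0.0558), and every fit without 1 library except those without TL-14d replicate 1 or 2. Between 3 hours and 3 days the difference was 0.17 (SE 0.15, q = 0.398). Its partner RPLP1 had log2 fold changes of 0.26, -0.02 and 0.05 at the 3 times, none of which passed.

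Of the other genes that serve as PCR references, RPL13A, RPL19, RPL30, RPL32 and RPS18 passed at no time with all 12 libraries, while without TL-14d replicate 1 RPL19 passed at 3 hours (0.39, q = 0.0443) and RPL32 at 14 days (-0.78, q = 0.0425). Their log2 fold changes at 3 hours ran from -0.08 for RPL13A (SE 0.24, q = 0.812) to 0.39 for RPL19 (SE 0.20, q = 0.144) under TMM scaling and from -0.59 to -0.11 with library size only, and at 3 days from -0.23 for RPL13A to -0.05 for RPL19 and RPL30. The SEs of these 5 genes were 0.16 to 0.30. RPL5, RPL11 and RPL23 passed at no time either with all 12 libraries, and free forms of their products bind the p53 regulator MDM2. At 3 hours their log2 fold changes were 0.29 (SE 0.14, q = 0.117), 0.08 (SE 0.22, q = 0.805) and 0.20 (SE 0.17, q = 0.359), and with library size only -0.22, -0.43 and -0.30. MDM2 mRNA, named after its values were seen, was 174 ± 19 CPM in cont, 544 ± 47.6 in TL-3h and 798 ± 184 in TL-3d, and passed at both times (log2 fold change 1.65, SE 0.40, q = 0.00784, and 2.20, SE 0.41, q = 0.0135).

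At 3 days, 4 of the 68 genes (5.88%) were higher and 0 lower, where 10.6% of all genes were higher and 7.0% lower. They were RPS27L, RPL7L1, RPL36AL and RPLP0, whose values are given above. In the same libraries the summed level of 6 monocyte and macrophage markers was 1290 to 2070 CPM in TL-3d against 69.1 to 604 in cont, with 4 of the 6 higher, and their part in the result was not tested. The calls were fragile: leaving out 1 library at a time gave counts from 0 to 7, with 0 when cont replicate 2 or TL-3d replicate 2 was left out and 7 (6 higher, 1 lower) without TL-14d replicate 1, where 14.4% of all genes were higher and 10.6% lower. The share of all genes is not set beside the counts of 0, which therefore do not show a loss particular to this family. The median of the 68 genes was -0.06, beside 0 for all genes tested. At 3 hours 65 of the 68 genes lay above 0 under TMM scaling, but 32 with upper quartile factors and 12 with library size only. At 3 days the genes spread to both sides under TMM scaling, 13 with all TL-3d libraries above cont (23.8% of all genes) and 9 with all of them below (21.7%). RPL23A was the lowest: it had 1275, 1183 and 1106 CPM in cont and 757, 819 and 932 CPM in TL-3d, with no overlap, and a log2 fold change of -0.51 that did not pass (SE 0.25, q = 0.172). RPL35A (-0.51, q = 0.133) and RPS27 (-0.48, q = 0.194) followed, also without overlap and without passing. RPL23A passed as lower without TL-14d replicate 1 (q = 0.0333), as did RPL35A (q = 0.0471) and RPS27 (q = 0.0383) with only the 2 groups compared.

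From 3 hours to 3 days, 8 of the 68 genes were lower and 0 higher, against 19% of all genes lower and 18.4% higher. Marker levels moved over the same interval, without overlap and in both directions. Summed fibroblast markers lay at 105000 to 126000 CPM in TL-3h and 1330 to 64700 in TL-3d, and endothelial markers at 606 to 1210 and 294 to 549. Schwann cell markers lay at 32.5 to 49.4 and 7.14 to 11.2, neutrophil markers at 1050 to 2790 and 126 to 739, and T cell markers at 32.2 to 51.5 and 17 to 28.8. Monocyte and macrophage markers were higher in TL-3d, at 1290 to 2070 CPM against 647 to 987 in TL-3h. The part of these markers in the result was not tested. With library size only all 8 calls were lost and 1 gene, RPLP0, was higher (0.65, q = 0.0088), and with upper quartile factors RPL7L1, RPL36AL and RPL38 remained lower. The median of the 68 genes was -0.28, beside -0.05 over all genes, and with library size only it was 0.19, beside 0.43. The 8 genes were RPL7L1 (-0.74, SE 0.11, q = 0.000553), RPL36AL (-0.62, SE 0.14), RPL26L1 (-0.45, SE 0.12), RPL38 (-1.37, SE 0.35), RPL35A (-0.67, SE 0.23), RPL24 (-0.66, SE 0.19), RPL21 (-0.50, SE 0.15) and RPL15 (-0.29, SE 0.10), the last 3 named because they passed. RPL24, at 296, 271 and 346 CPM in TL-3d, lay below all 3 TL-3h libraries, which had 503, 472 and 464 CPM. RPS27L had a log2 difference of -0.08 over this interval (SE 0.14, q = 0.69). Leaving out 1 library at a time gave counts from 3 (without TL-3h replicate 1 or 3) and 4 (without TL-3h replicate 2 or TL-3d replicate 1 or 2) to 13 without TL-14d replicate 2 and 21 without TL-14d replicate 1, where 20.8% of all genes were lower. The share of all genes is not set beside the other counts.

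**Figure D4:**
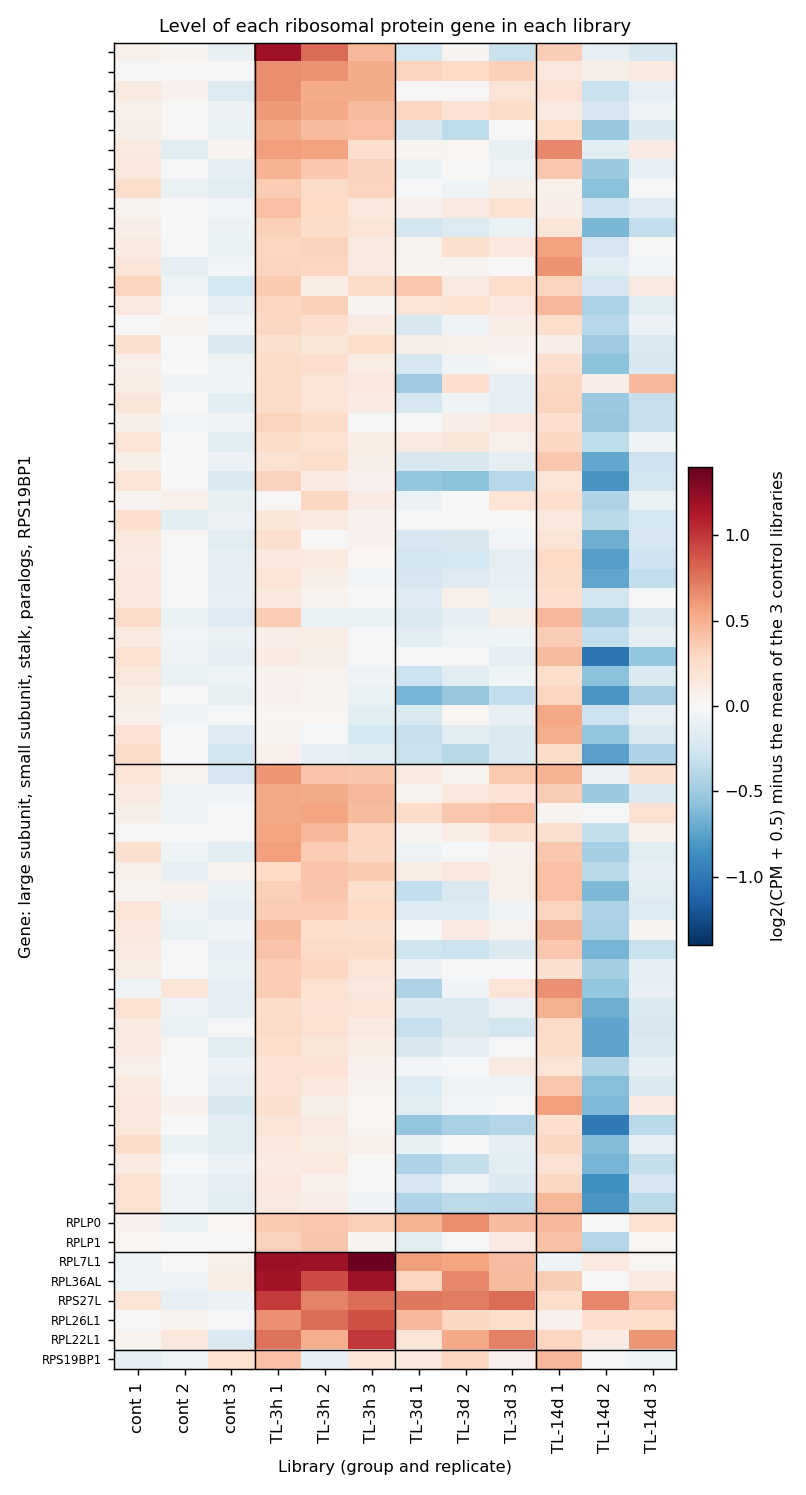
Level of each of the 68 ribosomal protein genes (rows, by class and then by change at 3 hours, with names beside the stalk proteins, the paralogs and RPS19BP1) in each of the 12 libraries (columns), as log2(CPM + 0.5) minus the mean of the 3 cont libraries. Under TMM scaling levels in TL-3h are mostly higher (red; the family median turns below 0 with library size only), and at 14 days replicate 1 lies above the cont mean in 67 rows and replicate 2 below it in 62.

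At 14 days, 0 of the 68 genes passed in edgeR, as did 0 of all genes in either direction (0% higher and 0% lower). The smallest q of a ribosomal protein gene was 0.366, at an unadjusted p under 0.05 in 1 of them (RPS27L) and in 1538 of all genes. DESeq2 also called 0 of the 68, and 367 of all genes. Without TL-14d replicate 1, edgeR called 1 of the 68 (1.47%) and 716 of all genes (4.74%). With all 12 libraries in edgeR the median log2 fold change was -0.06, beside 0.02 over all genes. All 3 TL-14d libraries lay above cont for 3 genes, RPL15, RPL26L1 and RPS27L (6.03% of all genes), and below it for 0 (5.11% of all genes). From 3 days to 14 days 1 gene was lower, RPL7L1 (-0.49, SE 0.11, q = 0.0472), and 0 higher, against 1.59% and 0.647% of all genes. Among the 12 fits that left out 1 library, 1 gene passed without cont replicate 3 or TL-14d replicate 2 and 0 in the other 10.

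The spread between the TL-14d libraries was wide and shared by the family. The median SD of log2 levels was 0.41 over the ribosomal protein genes in TL-14d, beside 0.13 in cont and 0.08 in both TL-3h and TL-3d. Over all genes with a mean level of at least 1 CPM it was 0.32 in TL-14d and 0.21 to 0.26 in the other groups. Relative to the mean of cont, the family's median was 0.29 in TL-14d replicate 1, -0.47 in replicate 2 and -0.15 in replicate 3. Replicate 1 was the highest of the 12 libraries for 33 of the 68 genes, and replicate 2 the lowest for 54. Within TL-14d, replicate 1 was highest and replicate 2 lowest for 60 of the 68 genes and for 24.3% of all genes tested.

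Examples are RPL32, RPS27 and RPL3. The row of RPL32 had 532, 192 and 268 CPM in the 3 TL-14d libraries, and 453, 372 and 356 CPM in cont. This covers its own row alone, as 2 loci annotated as L32 rose between TL-3d and TL-14d, which is described below. RPS27 had 327, 140 and 213 CPM in TL-14d and 310, 276 and 251 CPM in cont. RPL3, among the first proteins to join the assembling large subunit, had 1553, 866 and 988 CPM in TL-14d against 1126, 1030 and 1052 in cont. In each, replicate 1 lay above and replicate 2 below all control libraries.

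The gap between TL-14d replicates 1 and 2 had a median of 0.81 log2 over the 68 genes, of which 65 were higher in replicate 1, beside 0.04 over all genes tested. Over 119 other genes with transcripts under 1000 bases and mean levels of at least 100 CPM it was 0.40, with 78 of them higher in replicate 1. It was 0.38 for elongation factors and other TOP genes, -0.53 for initiation factors, -0.33 for ribosome biogenesis genes and 0.02 for mitochondrial ribosomal proteins. The summed neutrophil markers of the 3 TL-14d libraries were 3.33, 114 and 102 CPM, and those of monocytes and macrophages 89.6, 450 and 276 CPM. The part of transcript length and of leukocytes in the gap was not tested. Without replicate 1, the median of the family at 14 days was -0.30, and 1 gene (1.47%), RPL32, passed as lower by its own row (-0.78, q = 0.0425). In the same fit 3.51% of all genes were higher and 1.22% lower. Without replicate 2 the median of the family was 0.09. Without replicate 1, the number of genes that passed at 3 hours was 18 (26.5%, all higher), beside 24.5% of all genes higher and 23.7% lower in the same fit, and the cause was not tested.

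Genes of ribosome biogenesis, initiation factors and RNA polymerase I had larger median changes at 3 hours than the ribosomal proteins. Against 23.2% of all genes higher and 22.2% lower at this time, the counts were as follows. Of 38 ribosome biogenesis genes, 34 were higher and 1 lower in TL-3h, with a median log2 fold change of 2. NOP56 and NOP58, core proteins of the particles that methylate ribosomal RNA, rose by 3.15 (SE 0.21, q = 2.45e-05) and 2.88 (SE 0.18), and NOP2, NOP14, NOP16 and the methyltransferase FBL by 1.23 to 2.39. NOP56 went from 43.4, 35.2 and 47.1 CPM in cont to 323, 475 and 316 CPM in TL-3h. The gene that was lower was UTP20 (-0.95, q = 0.0161), named because it was the only one. All 13 initiation factors tested were higher, with a median of 1.6, among them EIF1 (2.01, SE 0.16) and EIF2S1 (2.02, SE 0.24). Of 11 genes of RNA polymerase I and its factors 9 were higher and 0 lower, with a median of 1.15, POLR1B among them (1.86, SE 0.14, q = 2.89e-05). The medians of these 3 lists stayed above 0 with library size only, at 1.51, 1.1 and 0.65, where all genes had a median of -0.47.

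Genes whose mRNAs share the TOP tract with ribosomal proteins were measured beside them. Of 14 elongation factors and other TOP genes, 6 were higher and 0 lower at 3 hours (all genes 23.2% and 22.2%), with a median of 0.15 that turned to -0.35 with library size only, where 2 were higher and 5 lower. EEF1A1, the factor that brings aminoacyl-tRNA to the ribosome, stood at 11900 ± 652 CPM in cont and 12100 ± 692 in TL-3h (log2 fold change 0.02, SE 0.20, q = 0.929), whereas EEF1B2 rose by 0.91 (SE 0.14, q = 0.000569). Mitochondrial ribosomal proteins, which build the separate ribosome of that organelle, were higher for 37 of 70 genes and lower for 3 (MRPL4, MRPS26 and MRPL58) at 3 hours, beside the same shares of all genes, with a median of 0.40; with library size only 10 were higher and 17 lower, with a median of -0.10.

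Regulators of these genes were measured in the same libraries. MYC, a transcription factor that drives ribosome biogenesis, stood at 20.7, 14.6 and 64.6 CPM in cont and at 242, 214 and 203 CPM in TL-3h, without overlap (log2 fold change 2.72, SE 0.48, q = 0.00129). Beside 23.2% of all genes higher and 22.2% lower at 3 hours, 10 of the 14 regulators tested were higher and 1, MTOR, lower (-0.60, q = 0.0127), among the higher ones MAX (1.2), MXD1 (3.69), LARP1 (0.59, q = 0.00877) and LARP4 (1.24). With library size only 7 were higher and 1 lower. FAU and RACK1, ribosomal proteins under other names, passed at no time (0.26, q = 0.415, and 0.33, q = 0.169 at 3 hours).

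By 3 days, when 10.6% of all genes were higher and 7.0% lower, 2 of the 38 biogenesis genes were higher (NPM1 at 0.55 and NOP16 at 0.80) and 1 lower (UTP20 at -1.10), with a list median of 0.25. The initiation factors had 4 of 13 higher (median 0.46), RNA polymerase I 2 higher and 1 lower of 11 (POLR1A at 0.71 and TAF1C at 1.65, against TAF1B at -0.61), and the TOP genes 2 of 14 higher (NAP1L1 at 0.70 and EIF3L at 0.54). Of the regulators 5 of 14 were higher and 0 lower, namely MDM2, SESN2 (2.44), MXD1 (1.27), EIF4EBP1 (1.13) and MAX (0.48), and of the mitochondrial ribosomal proteins 9 of 70 were higher and 0 lower. At 14 days no gene of these lists passed in edgeR, and the medians ran from -0.03 for TOP genes to 0.14 for mitochondrial ribosomal proteins. All comparisons with cont share its 3 libraries.

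**Figure D5:**
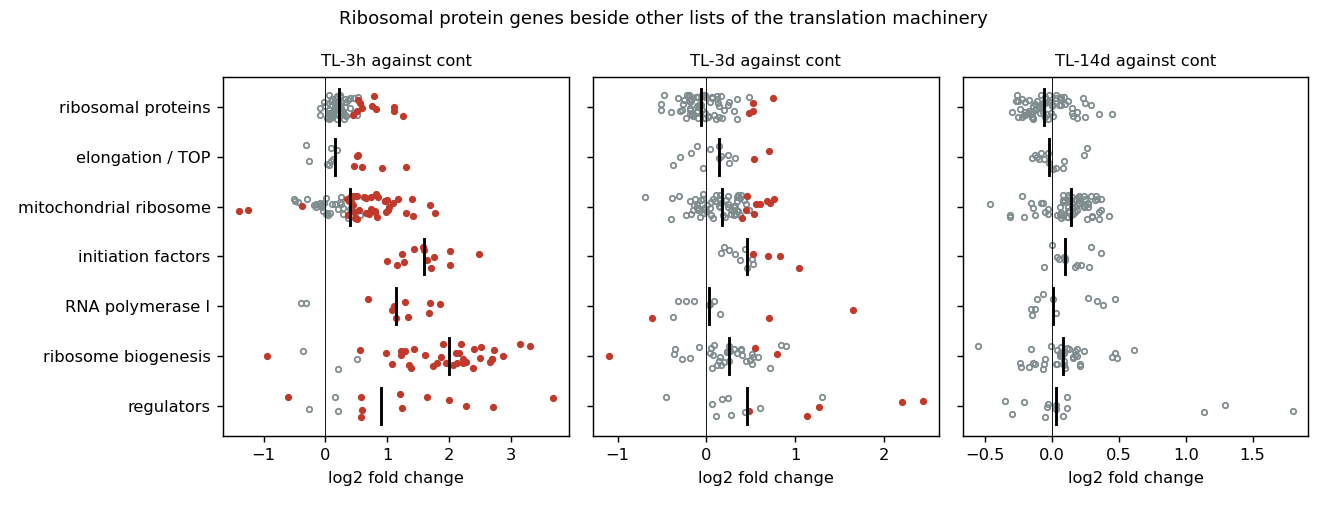
Log2 fold changes of single genes (points) against cont at the 3 times for the 68 ribosomal protein genes and 6 other lists, red and filled where q was at or under 0.05; the vertical bar is the list median, and each panel has its own x range. At 3 hours the medians are 0.21 for ribosomal proteins and 0.15 for elongation and other TOP genes (-0.29 and -0.35 with library size only), 1.6 for initiation factors and 2 for ribosome biogenesis, and at 14 days all points are open.

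A part of the rabbit's ribosomal proteins is carried by loci without a standard symbol. The table held 126 loci with LOC names that are annotated as cytosolic ribosomal proteins, 88 of them tested, with counts that summed to 19.3% of those of the 68 genes. For 15 proteins, S2, S19 and S27a (fused to ubiquitin) among them, such loci were the only source, and 33 proteins of the 68 genes also had at least 1. At 3 hours, beside 23.2% of all genes higher and 22.2% lower, 10 of the 88 loci were higher and 2 lower (annotated as L13 at -2.15, q = 0.00931, and as L29 at -1.13, q = 0.0362), with a median of 0.16. At 3 days, beside 10.6% and 7.0% of all genes, 4 were higher (annotated as L15, S6, S6 and S27) and 0 lower, and at 14 days 0 passed. The locus for S27a rose by 0.44 at 3 hours (q = 0.0406), and that for S19, with the most counts of all, had -0.20 (q = 0.415).

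Reads from near-identical copies make the values of single genes uncertain. Of the count values of the 68 genes, 78.6% were fractions, beside 23.4% in the whole table, and 67 of the genes had a fraction in at least 1 library. RPL32 is an example: 2 loci annotated as L32 rose between TL-3d and TL-14d (3.49, q = 0.0291, and 2.23, q = 0.0406), while RPL32 itself was low in TL-14d replicate 2; summed over its loci, the log2 fold change of RPL32 at 14 days was -0.02 rather than -0.25. The rows of RPL18, RPL22 and RPS21 span no more than their transcript and so contain no intron in this build. The 4 rows under the count minimum were RPL3L, RPL10L, RPL18_dup1 and a row of RPL39 with no intron that is listed at 0 in every library; RPL39_dup1, on chromosome X, held 2510 to 5071 counts per library. When counts were summed per protein over all loci, a choice made after seeing these data, 11 genes passed at 3 hours, with RPS26 among them and RPL38 not, and 4 at 3 days.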

How the data were processed

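RNA of 12 conjunctiva libraries (4 groups of 3, grouped by their labels) was sequenced. Per the study's methods, stranded mRNA libraries were aligned with STAR 2.6.0c to OryCun2.0 and quantified in GeneData Profiler. The authors deposited estimated counts per gene and per transcript, and FPKM per gene. How reads with several placements were shared is not given in the sources used here. Of the gene counts 23.4% were fractions, and counts were rounded before testing.

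Genes were kept by filterByExpr (minimum count 10, minimum total 15), leaving 14835 of 20566. One edgeR 4.0.16 quasi-likelihood fit (R 4.3.3) over 12 libraries, with TMM factors and group as the only term, gave each comparison, with Benjamini-Hochberg adjustment over all genes tested and a threshold of q at or under 0.05. The SE is the log2 fold change divided by the square root of F. Fold changes used a prior count of 0.125. DESeq2 1.42.0, limma 3.58.1 and other scalings, filters and left-out libraries were alternatives. Scripts were tested on simulated data.

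The members and gene lists were chosen with earlier results of these data known. Members named by rule were the paralogs and partners, stalk proteins, common reference genes, MDM2-binding proteins and the members with extreme changes or levels. Of the other lists, the first members in listed order were named, and other named genes were chosen after their values were seen. Sequences were not used here, and some single genes are not reported here.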

Additional observations from a re-analysis of the deposited data

Results flagged for a closer look

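Of the 8 genes that passed in the direct test of TL-3d against TL-3h in edgeR, 5 are among the genes named by rule: RPL7L1 (log2 difference -0.74, SE 0.11, q = 0.000553), RPL36AL (-0.62, SE 0.14, q = 0.00633), RPL26L1 (-0.45, SE 0.12, q = 0.0125), RPL38 (-1.37, SE 0.35, q = 0.0118) and RPL35A (-0.67, SE 0.23, q = 0.0402). With library size only none of these 5 passed (q from 0.0718 for RPL38 to 0.887 for RPL26L1, whose difference was then 0.03), and with upper quartile factors RPL7L1, RPL36AL and RPL38 passed. RPL7L1 also passed between 3 and 14 days (-0.49, SE 0.11, q = 0.0472), but not with library size only (q = 0.0583) or upper quartile factors (q = 0.0521), and 0 genes passed there without a filter on low counts, with only the 2 groups compared, or in 10 of the 12 fits that left out 1 library.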

How the results depend on the processing

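With library size only and with upper quartile factors, the genes past the threshold numbered 3 (2 higher, 1 lower) and 6 rather than 11 at 3 hours, 2 and 2 rather than 4 at 3 days, 1 (higher) and 3 rather than 8 from 3 hours to 3 days, 0 and 0 rather than 1 from 3 to 14 days, and 4 and 5 rather than 11 over the 3 times together. The median at 3 hours was -0.29 and -0.02, that from 3 hours to 3 days 0.19 with library size only, and RPL22 reversed at 3 hours (-0.44). Without a filter on low counts 2 genes passed at 3 days and 0 from 3 to 14 days, and with DESeq2 7 and 4. With only the 2 groups compared, 16 passed from 3 hours to 3 days and 0 from 3 to 14 days. The share of all genes that passed in these fits is not set beside the counts, and the cause of the differences was not tested.

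Leaving out 1 library gave counts of 8 to 18 at 3 hours, 0 to 7 at 3 days, 0 to 1 at 14 days, 3 to 21 from 3 hours to 3 days, 0 to 1 from 3 to 14 days, and 6 to 39 over the 3 times. Without TL-14d replicate 1, 18 passed at 3 hours, 7 at 3 days, 1 at 14 days and 21 from 3 hours to 3 days. Of all genes, 48.1%, 25%, 4.74% and 41.2% passed in the same fits. The share of all genes is not set beside the counts of the other fits. Medians ranged from 0.12 to 0.28, -0.13 to 0.03, -0.30 to 0.09, -0.32 to -0.21 and -0.25 to 0.17. Shares ranged from 3.18% to 3.59% in cont, 2.70% to 2.82% in TL-3h, 3.17% to 3.28% in TL-3d and 2.69% to 3.57% in TL-14d. Of summed FPKM the shares were 10.9%, 8.64%, 9.91% and 10%, outside the 100 highest genes 2.83%, 2.5%, 2.64% and 2.66%, and with FAU and RACK1 3.51%, 2.86%, 3.34% and 3.3% of counts, in the order cont, TL-3h, TL-3d and TL-14d.

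Replicate numbers are not said to pair the samples and were not treated as pairs. Correlations of same-numbered libraries ran from -0.16 to 0.53. They cannot decide whether samples were paired, because libraries with different numbers were not compared. With the replicate block, 11, 3, 0, 7 and 0 genes passed in the 5 comparisons and 11 over the 3 times. Among values of named genes under the alternatives, 2150 stayed on the same side of the threshold (99 of them with the other sign), 46 lost and 11 gained a call, and 1 reversed.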

Other observations

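RPL3L, the form of RPL3 in skeletal and heart muscle, was under the count minimum but held 78 counts in cont replicate 2 and 51 in TL-3d replicate 3, against 0 to 4 in the other 10 libraries. The same 2 libraries held the skeletal muscle markers, with ACTA1 at 91.6 and 239 CPM. These genes were chosen after their values were seen.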
